A study of Mus musculus with 12 samples.

Results

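Cytoplasmic ribosomal protein genes encode the proteins of the ribosome that translates nuclear mRNAs. They were taken here as the protein-coding mouse genes whose GRCm38 symbol is Rps or Rpl followed by a number with at most an ending a, x, l or y, together with Rplp0, Rplp1, Rplp2 and Rpsa, leaving out the Rps6k kinases and pseudogenes. The rule found 83 genes among 54146 gene identifiers, 32 of the small subunit and 51 of the large subunit. It uses names alone, so no measured value entered the choice. 6 further symbols fit the pattern but are annotated as pseudogenes, among them Rps4l, and were left out.

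The 12 samples, 4 groups of 3, are RNA-seq libraries of BMEL cells, a bipotential line from mouse embryonic liver. All groups descend from a line isolated from a mouse with floxed Cdk8 alleles. The untransformed group is labelled wild type with no transformation, the RasG12V group is the wild-type line transformed by H-RasG12V, and the remaining groups carry H-RasG12V together with a knockout labelled Cdk8 -/- or Cdk19 -/-, kinases of the Mediator complex. All were growing exponentially on collagen. The labels do not say whether the 3 samples of a group were separate cultures or clones. A p-value here therefore reflects how far these samples vary, and that variation may be technical only.

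A ribosome contains 1 copy of nearly every ribosomal protein, and an imbalance between them is corrected mainly by degrading the unassembled protein, so the genes are known to be expressed as a set. Their mRNAs begin with a run of pyrimidines, the 5′ terminal oligopyrimidine (TOP) tract, which places their translation under control of mTORC1, a growth kinase downstream of growth factor and Ras signalling. Transcription of the set is also associated with the transcription factor MYC. The spliced mRNAs have been copied back into mammalian genomes many times as processed pseudogenes, which matters for how reads can be assigned to them.

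The libraries held between 24823560 and 36879661 gene counts. Reads that mapped to several places made up 23.0% to 26.3% of reads and were not counted. RasG12V replicate 3 and untransformed replicate 3 stood apart from the other samples of their groups: a chi-square of their counts averaged 4.79 a gene for the RasG12V pair 1 and 2 and 97.2 and 89.2 for the pairs with replicate 3, and 8.45 against 58.0 and 58.6 in the untransformed group. Counts of calls are therefore also given without both of them. Liver progenitor and epithelial markers were present in every library (10 of 10 detected in each group, summing to between 6420 and 9556 CPM, Krt18 leading), while fibroblast and endothelial markers summed to at most 0.597 CPM and leukocyte markers to at most 7.87 CPM. Hepatocyte markers summed to between 58.2 and 103 CPM in untransformed samples and between 33.8 and 47.4 CPM in RasG12V samples, without overlap, and their part in the results below was not tested. RasG12V replicate 3 had the highest share of mitochondrial counts (1.92%) and of rRNA gene counts (0.134%) of the 12 libraries. Hras lay between 40.7 and 57.5 CPM in untransformed samples and between 313 and 537 CPM in RasG12V samples. Cdk8 lay between 41.4 and 43.8 CPM in its knockout against 50.9 to 56.4 CPM in RasG12V, and Cdk19 between 45.0 and 53.1 CPM in its knockout against 64.7 to 93.6 CPM. In untransformed samples Cdk8 lay between 43.7 and 49.6 CPM, overlapping its knockout. Cdk19 lay there between 83.4 and 91.7 CPM, without overlap with its knockout. Counts summed over whole genes do not show a deleted exon, so these levels are a weak check of the knockout labels.

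How much of a ribosomal protein gene can be read uniquely differed widely, and the Rps27 pair shows it. Rps27 and its paralog Rps27l encode closely related proteins of the small subunit. The first 90 bases of their coding sequences (GENCODE M21 transcripts, GRCm38, 5′ to 3′, capitals marking the 24 positions at which the pair differs) are shown because the pair differs in how much coding sequence is shared with transcripts of other genes:
Rps27: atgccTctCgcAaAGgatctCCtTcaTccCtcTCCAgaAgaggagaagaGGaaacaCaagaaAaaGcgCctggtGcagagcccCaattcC
Rps27l: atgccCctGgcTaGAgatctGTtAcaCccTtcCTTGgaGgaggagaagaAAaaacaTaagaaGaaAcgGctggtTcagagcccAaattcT
The complete coding sequences, 252 bases each, were identical at 76.2% of positions. Every 50-base word of the Rps27 coding sequence (100%) was also found in the transcripts of other genes, 8 of them pseudogenes. For Rps27l the share was 48.3%, with 4 pseudogenes among the genes sharing a word. Rps27 was counted at 3.81 CPM on average over the 12 libraries and Rps27l at 248 CPM. Multimapped reads are missing from the counts, so the level of a gene like Rps27 in these tables is that of its uniquely placed reads.

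Across the set, levels tended to be lower where more sequence was shared, with a wide spread. Levels were compared per kb of coding sequence. The 12 tested genes that shared less than 50% of their coding words with other genes had a median of 1945 CPM per kb, the 6 that shared 50% to 75% had 1024, and the 62 that shared 75% or more had 93.9. Across the 80 tested genes the Spearman correlation of level and shared share was -0.82, given as a description across genes in the same libraries. Rps3, with 8.09% shared, stood at 3198 CPM per kb. Rpl24 and Rps6, both shared in full, stood at 1.76 and 2.07 CPM per kb, from 0.830 and 1.55 CPM. Rps6 is the ribosomal protein whose phosphorylation by S6 kinase is a common readout of mTORC1. The relation was loose among genes that shared 75% or more, which ranged from 1.76 to 5879 CPM per kb. Rpl39 (86.5% shared) and Rpl37 (82.2%) stood at 1211 and 1206 CPM per kb, above Rpl7l1 (21.9%) at 340. Rpl41, the smallest ribosomal protein with 25 codons, was shared in full. It still had the highest value of all, 5879 CPM per kb from 441 CPM. Its coding sequence makes up 6.42% of its annotated exons. Coding shares are low in other genes too (6.38% in Rps24, with a median of 24.7% over the set), and reads from the non-coding parts count toward a level per coding kb in all of them.

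**Figure D1:**
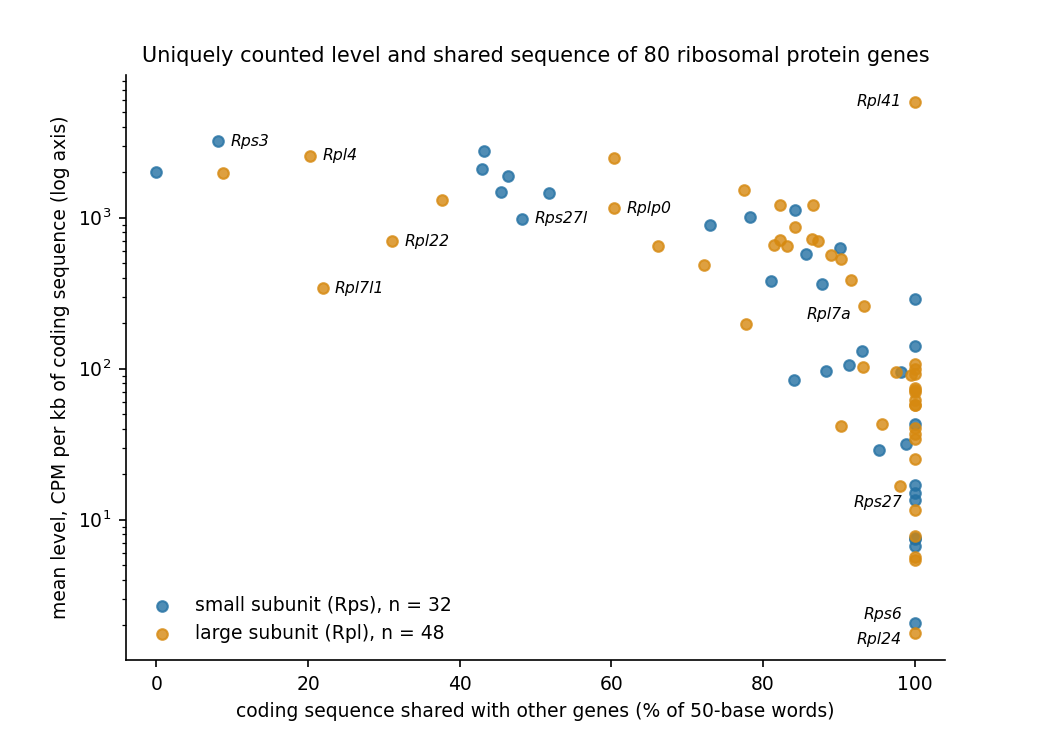
Mean level over 12 libraries in CPM per kb of coding sequence (log axis) against the percentage of 50-base words of the coding sequence found in transcripts of other genes, for the 80 tested ribosomal protein genes, coloured by subunit. Genes that share all of their coding sequence reach down to 1.76 CPM per kb (Rpl24), genes with little sharing lie near or above 340 CPM per kb (Rpl7l1), and Rpl41 lies apart at the top right.

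The number of pseudogenes that share a 50-base word was largest for Rpl7a (110 pseudogenes), Rpl21 (78), Rpl29 (75) and Rps2 (69). Counts assigned to the 301 ribosomal protein pseudogenes named by their symbols were small, between 0.0260% and 0.0402% of gene counts in a library. The genes at the top of the level range per kb were Rpl41, Rps3, Rps15, Rpl4 and Rplp1, and those at the bottom were Rpl24, Rps6, Rpl19, Rpl23a and Rps16. In plain CPM, Rpl4, a large subunit protein lining the exit tunnel, was highest at 3235, followed by Rps3, a protein at the mRNA entry channel, at 2332 and Rpl8 at 1535. The 8 genes at 1000 CPM or more held 53.1% of the counts of the set, and 13 tested genes stayed under 10 CPM.

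The TOP tract was looked for at the transcription starts given by RefSeq (GRCm38.p6). 63 of the 83 genes were matched to 75 promoter entries. A run of at least 7 pyrimidines starting with C and overlapping the 10 bases on either side of the start was found in 45.3% of these entries, against 15.4% of all 32851 promoters of the same length. Rpl5, Rplp0, Rplp1, Rpl41, Rpl36a and Rpsa, named below, had either no tract or no matched entry. Windows of 30 bases are shown for some other named genes that had one, with the tract (as far as it falls inside) in capitals:
Rps24 (chr14:24490668-24490697, plus strand): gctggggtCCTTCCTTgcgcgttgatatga
Rpl15 (chr14:18270967-18270996, minus strand): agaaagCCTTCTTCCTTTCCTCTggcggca
Rpl7a (chr2:26910797-26910826, plus strand): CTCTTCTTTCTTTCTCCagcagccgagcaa
Rplp2 (chr7:141447641-141447670, plus strand): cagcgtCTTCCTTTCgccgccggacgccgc
Rpl27a (chr7:109519185-109519214, plus strand): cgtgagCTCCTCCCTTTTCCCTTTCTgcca
Rps6 (chr4:86857348-86857377, minus strand): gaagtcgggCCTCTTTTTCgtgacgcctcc
Rps10 (chr17:27635225-27635254, minus strand): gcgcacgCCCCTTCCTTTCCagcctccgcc
A tract was thus found at the start of Rps24, whose value was higher with Ras, and of Rpl15, whose value was lower. In the 300-base windows from 250 bases before to 50 after the start, CTTTCC on the sense strand was found in 37.3% of entries against 14.1% of all promoters. CTCTTTC, which can overlap it, was found in 20% against 3.99%. CCGGAAG, the core bound by ETS factors, was found on either strand in 36% against 8.86%. CACGTG, the E box bound by MYC, was found on either strand in 10.7% against 7.15%, and TATAAA on the sense strand in 8% against 8.32%. These are matches of letters and not measured binding.

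RasG12V against untransformed asks how transformation by mutant Ras changes the transcriptome of these progenitors. Of the 80 ribosomal protein genes tested, 1 rose and 0 fell at an adjusted p under 0.05 (edgeR's quasi-likelihood test, Benjamini-Hochberg over 14283 genes), where 23.4% of all genes were called (11.9% higher and 11.5% lower). At an unadjusted p under 0.05 the counts were 10 higher and 1 lower, together 13.8% of the 80, where 34.7% of all genes passed. DESeq2 called 4 of the 80 and limma-voom 1, where they called 26.2% and 23.4% of all genes. The share of ribosomal protein genes called was thus below that of all genes under each of these tests. The shifts were small and mostly in one direction. The median log2 fold change of the 80 genes was 0.15, against 0.00 for all genes tested. The values of 69 of the 80 were above 0 (86.2%), against 49.9% of all genes. The small subunit had a median of 0.20 (32 genes) and the large subunit 0.14 (48 genes). The 12 genes with little shared sequence had a median of 0.18 and the other 68 had 0.14, and genes with a tract at a RefSeq start had 0.14 (32 genes) against 0.18 for matched genes without one (28 genes). The genes share their libraries and are not replicates of the condition, so these medians carry no test.

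The gene that rose was Rps24 (chr14:24487125-24496959, plus strand), a small subunit protein needed for 18S rRNA processing and mutated in some forms of Diamond-Blackfan anaemia. Its level was 339, 355 and 356 CPM in the untransformed samples and 406, 427 and 449.9 CPM in the RasG12V samples. All RasG12V samples lay above all untransformed ones. The mean was 350 ± 9.49 CPM (SD, n = 3) against 428 ± 21.8 CPM (SD, n = 3), a log2 fold change of 0.29 (SE 0.071, adjusted p = 0.0106 in edgeR). It was also among the steadiest genes of the set, with a within-group SD of 0.064 on the log2 scale against a median of 0.16 over the 80 genes. The call was lost without untransformed replicate 1 (log2 fold change 0.26, adjusted p = 0.0569 in edgeR) and when only the 2 groups compared entered the fit (0.30, adjusted p = 0.0828 in edgeR). The Cdk8 and Cdk19 knockouts held Rps24 at 420 ± 25.3 and 413 ± 12.9 CPM (SD, n = 3 each), within the range of RasG12V apart from the lowest knockout samples at 395 and 398 CPM.

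Altogether 11 genes had RasG12V samples that all lay above all untransformed samples and 0 had the opposite. That is 13.8% higher and 0% lower, where 16.2% of all genes were non-overlapping in each direction. They were Rps24, Rps27a, Rpsa, Rplp0, Rplp1, Rpl7a, Rpl13, Rpl34, Rpl35, Rpl36a and Rpl41. Rpl41 was at 377, 394 and 358 CPM in untransformed samples and at 473, 457 and 410 CPM in RasG12V samples (log2 fold change 0.25, SE 0.087, adjusted p = 0.0566 in edgeR). Rpl36a, with 12.8 CPM on average, differed by 0.45 (SE 0.16, adjusted p = 0.0610 in edgeR). Neither passed the threshold. The largest value of all belonged to Rps6, at 1.24, 1.08 and 1.13 CPM in untransformed and 2.33, 2.17 and 1.09 CPM in RasG12V samples, a log2 fold change of 0.68 (SE 0.28, adjusted p = 0.104 in edgeR) on 35 to 64 counts a library. RasG12V replicate 3 was level with the untransformed samples. The lowest value was that of Rpl24, -0.28 (SE 0.27, adjusted p = 0.506 in edgeR), on 15 to 38 counts a library.

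The P stalk, the acidic arm of the large subunit that recruits translation factors, is built on Rplp0 with pairs of Rplp1 and Rplp2. Rplp0 was at 778, 937 and 944 CPM in untransformed samples and at 1203, 1132 and 973 CPM in RasG12V samples. The groups did not overlap, and the log2 fold change was 0.32 (SE 0.12, adjusted p = 0.0680 in edgeR). Rplp1 was at 722, 711 and 817 CPM against 891, 826 and 987 CPM, again without overlap (0.27, SE 0.13, adjusted p = 0.153 in edgeR). Rplp2 was at 131, 241 and 285 CPM against 344, 206 and 175 CPM, with the groups fully mixed (0.14, SE 0.33, adjusted p = 0.806 in edgeR). Rpsa, a small subunit protein also known as a laminin receptor, was at 26, 25.3 and 23.8 CPM against 27.4, 27 and 31.4 CPM (0.19, SE 0.089, adjusted p = 0.144 in edgeR). Of the stalk proteins and Rpsa none passed the threshold.

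A few genes lay on the other side. Rpl15 (chr14:18267823-18271391, minus strand), a large subunit protein, was at 76.1, 75.3 and 69.8 CPM in untransformed samples and at 58.1, 59.0 and 72.8 CPM in RasG12V samples (log2 fold change -0.22, SE 0.094, adjusted p = 0.117 in edgeR). Rpl5 (chr5:107900502-107909005, plus strand), which carries 5S rRNA into the ribosome and binds Mdm2 when unassembled, was at 77.1, 76.5 and 78.5 CPM against 59.0, 59.95 and 84.6 CPM (-0.19, SE 0.12, adjusted p = 0.282 in edgeR). In both genes RasG12V replicates 1 and 2 were low. Replicate 3 lay within the untransformed range for Rpl15 and above it for Rpl5. Both genes share all of their coding words with other genes, and their coding sequences make up 24.7% and 22.7% of the annotated exons. The 3′ end of Rpl5 overlaps Fam69a on the opposite strand, and the unstranded counts of Rpl5 were 22.3% of its strand-specific counts. In the unstranded counts the log2 fold change of Rpl5 turned to 0.07 (adjusted p = 0.861 in edgeR).

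Without replicate 3 of the untransformed and of the RasG12V group, 19 ribosomal protein genes were called in this comparison, 17 higher and 2 lower, where 40.0% of all genes were called (19.0% higher and 21.0% lower). The 2 that fell were Rpl5 (log2 fold change -0.38, adjusted p = 0.000189 in edgeR) and Rpl15 (-0.39, adjusted p = 0.000375 in edgeR). Among those that rose were Rplp0 (0.43, adjusted p = 0.00415 in edgeR), Rps6, Rps24, Rpl7, Rps4x, Rpl37, Rpl36a, Rpl41, Rps12, Rps9, Rpl18, Rpl23, Rps3a1, Rpl7l1 and Rps18. The median over the 80 genes was then 0.18. Without RasG12V replicate 3 alone, 10 were called, where 33.0% of all genes were. Without untransformed replicate 3 alone, 9 were called, where 26.9% of all genes were. The median stayed between 0.09 and 0.21 when any single library was left out. The values of these 2 libraries move with the count of calls, and their part in it was not tested further.

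**Figure D2:**
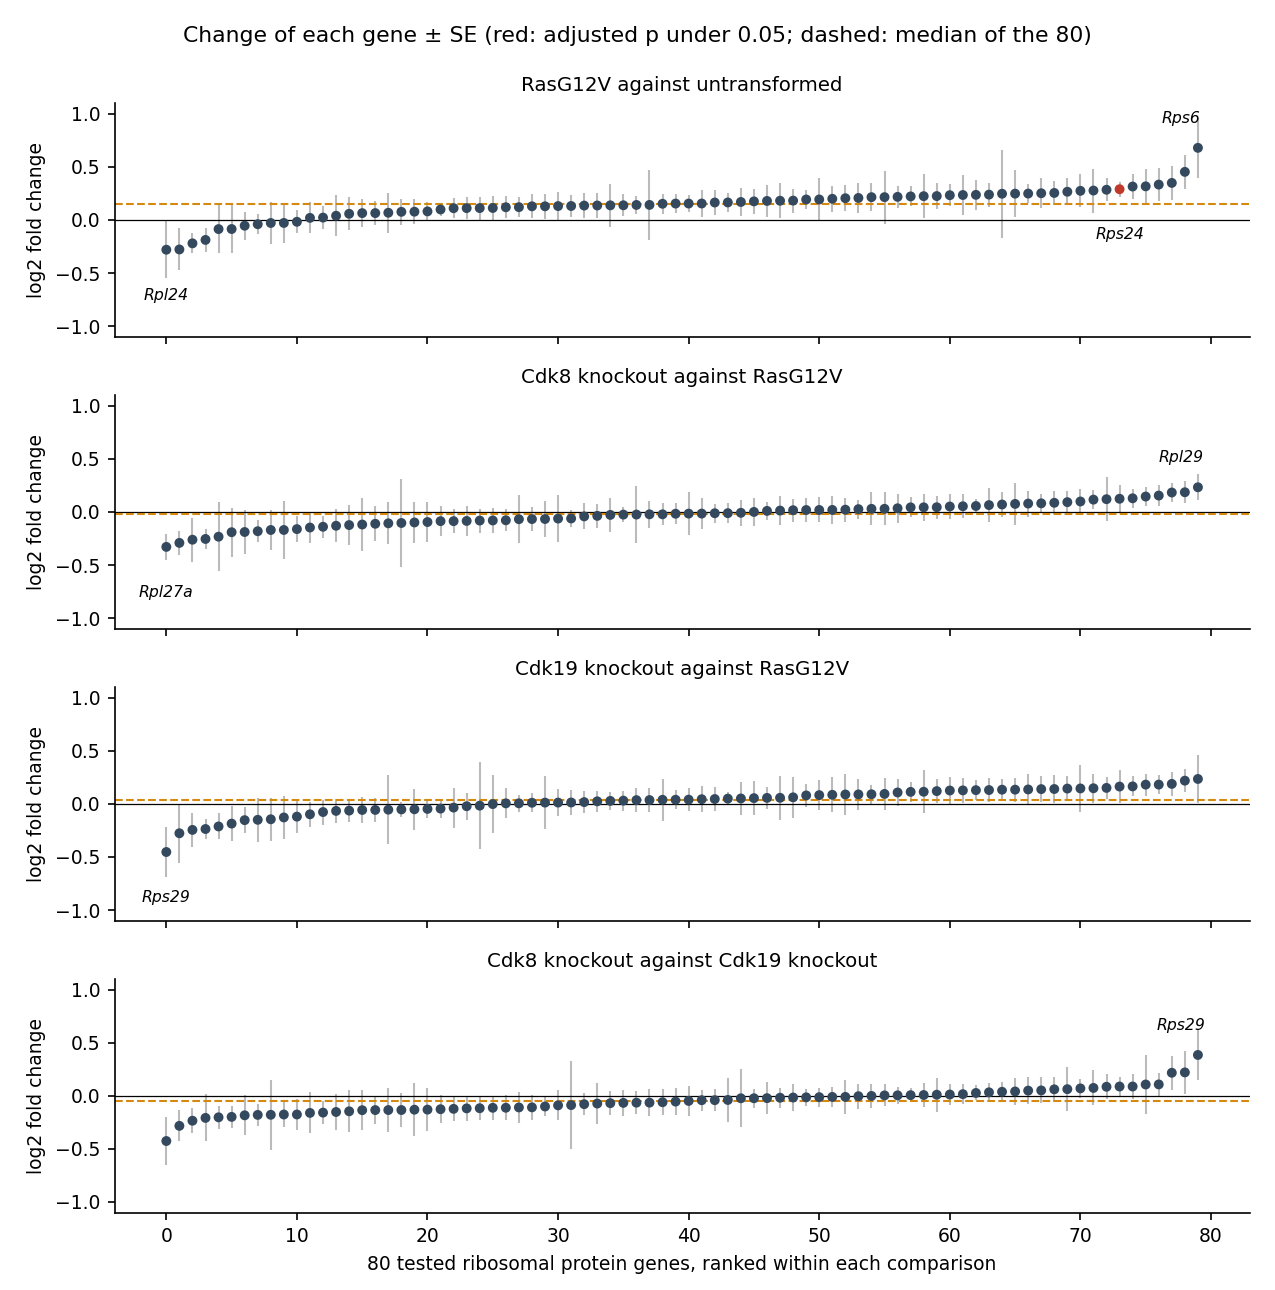
Log2 fold change ± approximate SE of each of the 80 tested ribosomal protein genes, ranked within each of 4 comparisons, with the median dashed and genes past an adjusted p of 0.05 in red. The median is 0.15 for RasG12V against untransformed and lies between -0.05 and 0.04 in the comparisons with knockouts, and Rps24 is the only gene in red.

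The set as a whole was followed through its share of gene counts. It took 2.03%, 2.12% and 2.54% in the untransformed samples and 2.45%, 2.38% and 2.59% in the RasG12V samples. It took 2.57%, 2.70% and 2.30% in the Cdk8 knockout and 2.62%, 2.6% and 2.64% in the Cdk19 knockout. The means were 2.23% ± 0.272, 2.48% ± 0.109, 2.53% ± 0.206 and 2.62% ± 0.0189 (SD, n = 3 each). The untransformed and RasG12V samples overlapped because of untransformed replicate 3, and the Cdk19 knockout lay above the untransformed samples without overlap. The share of reads mapped to several places moved with it: 23.0%, 23.8% and 24.9% in untransformed, 25%, 24.8% and 25.9% in RasG12V, 25.3%, 26.3% and 24.2% in the Cdk8 knockout and 26.2%, 25.8% and 25.5% in the Cdk19 knockout. Its part in the result was not tested. In bulk samples fewer cells of a type and less RNA per cell cannot be told apart.

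**Figure D3:**
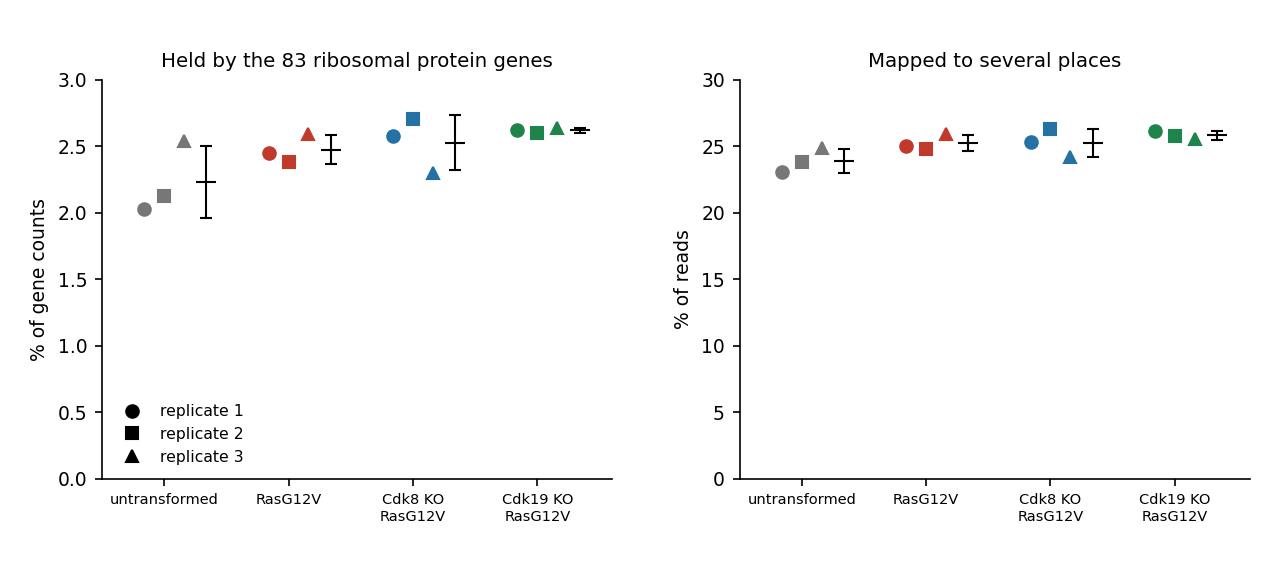
Share of gene counts held by the 83 ribosomal protein genes (left) and share of reads mapped to several places (right) in each of 12 libraries by group, with bars at mean ± SD, n = 3. Untransformed replicates 1 and 2 are lowest in both panels, at 2.03% and 2.12% of gene counts, and the 3 Cdk19 knockout samples lie between 2.6% and 2.64%.

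Gene by gene, each library was also set against the gene's own mean over the 12 libraries. Untransformed replicates 1 and 2 were again lowest, while the order of the other libraries differed from that by share. The median deviation of the 80 genes was -0.19, -0.14 and 0.00 on the log2 scale in the untransformed samples. It was 0.04, -0.01 and 0.04 in RasG12V, 0.06, 0.09 and -0.03 in the Cdk8 knockout and 0.02, 0.06 and 0.11 in the Cdk19 knockout. Untransformed replicate 1 was above the mean in 13 of 80 genes, and Cdk19 knockout replicate 3 in 72. The median for other protein-coding genes with short coding transcripts (under 1000 bases, 410 genes) was 0.00, 0.04 and 0.08 in the untransformed samples. It was 0.00, -0.09 and 0.00 in RasG12V, 0.07, 0.10 and -0.11 in the Cdk8 knockout and -0.04, -0.01 and 0.06 in the Cdk19 knockout. Short genes were thus not low in untransformed replicates 1 and 2, but within the untransformed and both knockout groups their medians ranked the replicates as those of the ribosomal protein genes did. The part of transcript length in the result was not tested. In RasG12V against untransformed the short genes had a median log2 fold change of -0.07, with 29 rising and 46 falling. That is 7.07% and 11.2% of them, against 11.9% and 11.5% of all genes.

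**Figure D4:**
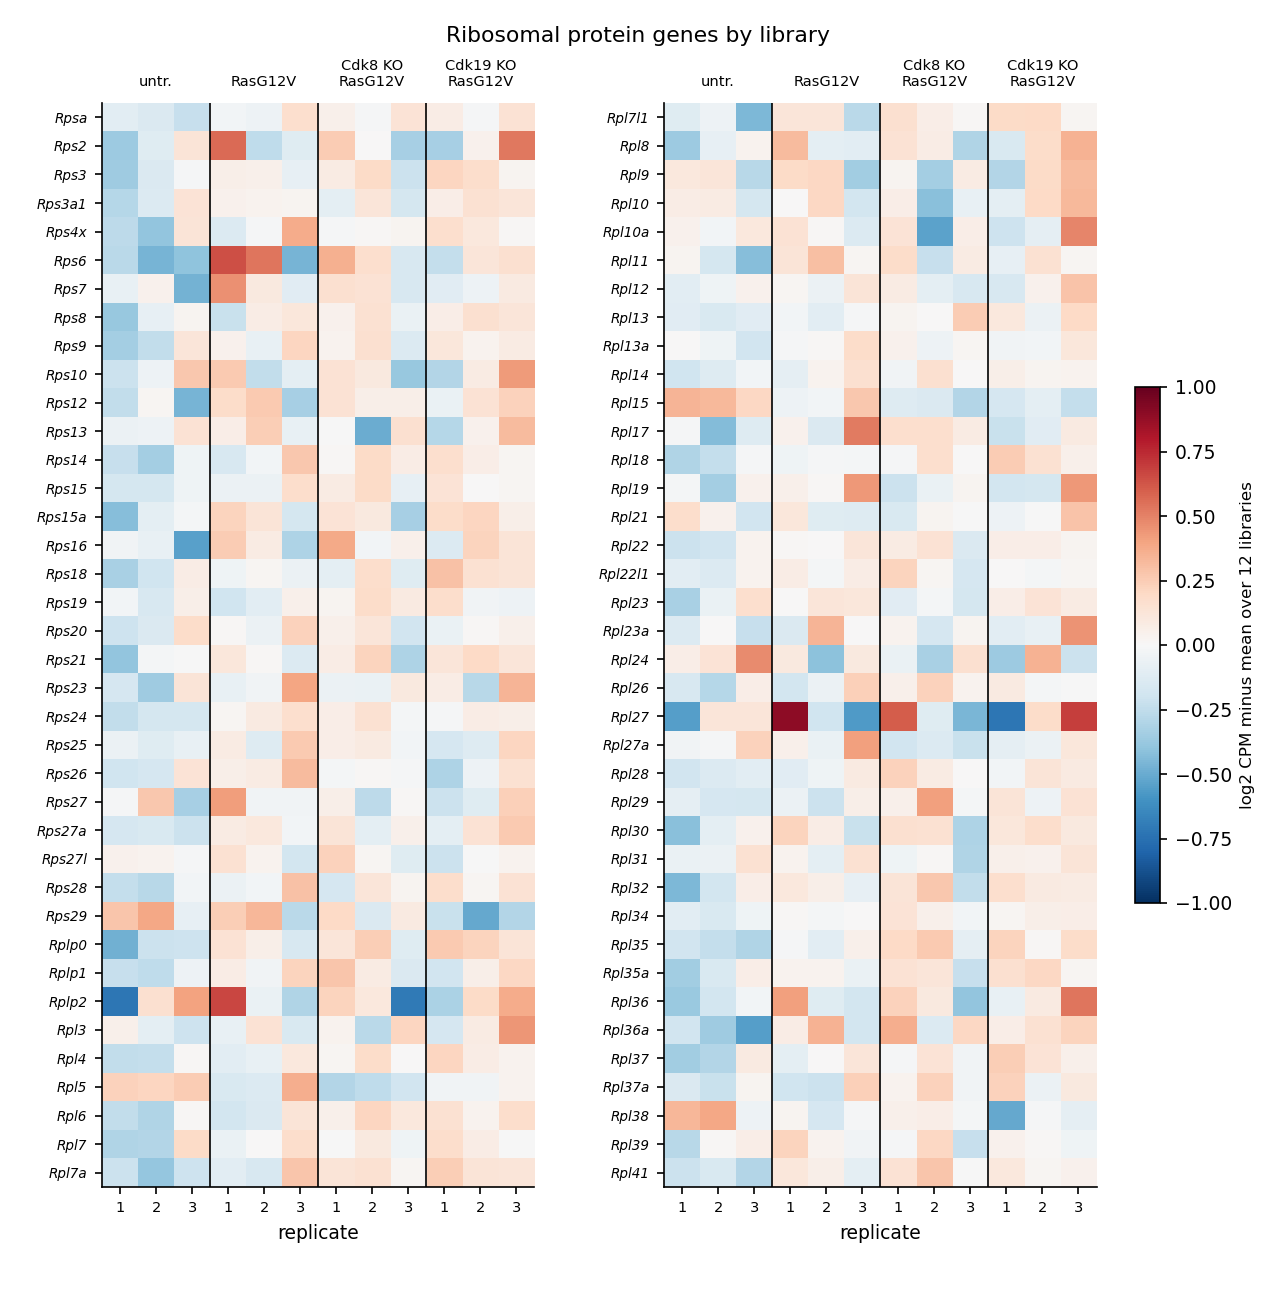
Log2 CPM minus the gene's mean over the 12 libraries for 76 of the 80 tested ribosomal protein genes (rows) in each library (columns, by group and replicate). The columns of untransformed replicates 1 and 2 are mostly blue (median deviations over all 80 genes of -0.19 and -0.14), and that of replicate 3 is not (0.00). Rpl27, Rplp2 and Rps2 vary between samples of 1 group.

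Paralogs differed in whether they were expressed. Rpl3l, Rpl10l and Rpl39l, known from muscle and germ cells, had 5, 2 and 3 counts in all 12 libraries together and were not tested, while Rpl3 was at 51.9 CPM, Rpl10 at 46.6 CPM and Rpl39 at 185 CPM. Rpl22l1 and its paralog Rpl22 were at 319.7 and 269.1 CPM. In RasG12V against untransformed their log2 fold changes were 0.11 (adjusted p = 0.438 in edgeR) and 0.17 (adjusted p = 0.222 in edgeR). Rpl7l1, a nucleolar relative of Rpl7, was at 251 CPM against 1230 CPM for Rpl7. Its value was 0.20 (adjusted p = 0.278 in edgeR) and that of Rpl7 was 0.16 (adjusted p = 0.421 in edgeR). Rps27l, described as a p53 target, was at 251 ± 5.64, 248 ± 28.9, 256 ± 31.7 and 237 ± 21.8 CPM (SD, n = 3 each) in untransformed, RasG12V, Cdk8 knockout and Cdk19 knockout samples. Its log2 fold change with Ras was -0.02 (SE 0.11, adjusted p = 0.937 in edgeR) and that of Rps27 was 0.14 (SE 0.20, adjusted p = 0.685 in edgeR). No paralog passed the threshold in any comparison. Without both 3rd replicates Rpl7l1 and its partner Rpl7 did, in RasG12V against untransformed (0.19, adjusted p = 0.0415, and 0.25, adjusted p = 0.00979, in edgeR).

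Some genes varied between samples of 1 group far more than the rest. Rpl27, a large subunit protein, was at 16.3, 25.9 and 26 CPM in untransformed, 44.2, 20.7 and 16.1 in RasG12V, 36.2, 21.9 and 17.3 in Cdk8 knockout and 14.5, 27.1 and 38.4 in Cdk19 knockout samples. Its within-group SD was 0.62 on the log2 scale and its highest library was 3.05 times its lowest. Rplp2 was at 252, 233 and 132 CPM in the Cdk8 knockout and at 173, 246 and 279 CPM in the Cdk19 knockout, with an SD of 0.50 and a range of 2.63 times. Rps2, a small subunit protein of the mRNA entry site, ranged from 56.3 CPM in untransformed replicate 1 to 108 CPM in RasG12V replicate 1 and 105 CPM in Cdk19 knockout replicate 3. RasG12V replicate 1 was the highest of the 12 libraries for all 3 of these genes. Cdk19 knockout replicate 3 was the 2nd or 3rd highest for each. Rps10 and Rpl36 were highest in Cdk19 knockout replicate 3 and lowest in Cdk8 knockout replicate 3. The high libraries came from different groups. What they share was not tested. At the other end, Rpl34 had a within-group SD of 0.051.

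**Figure D5:**
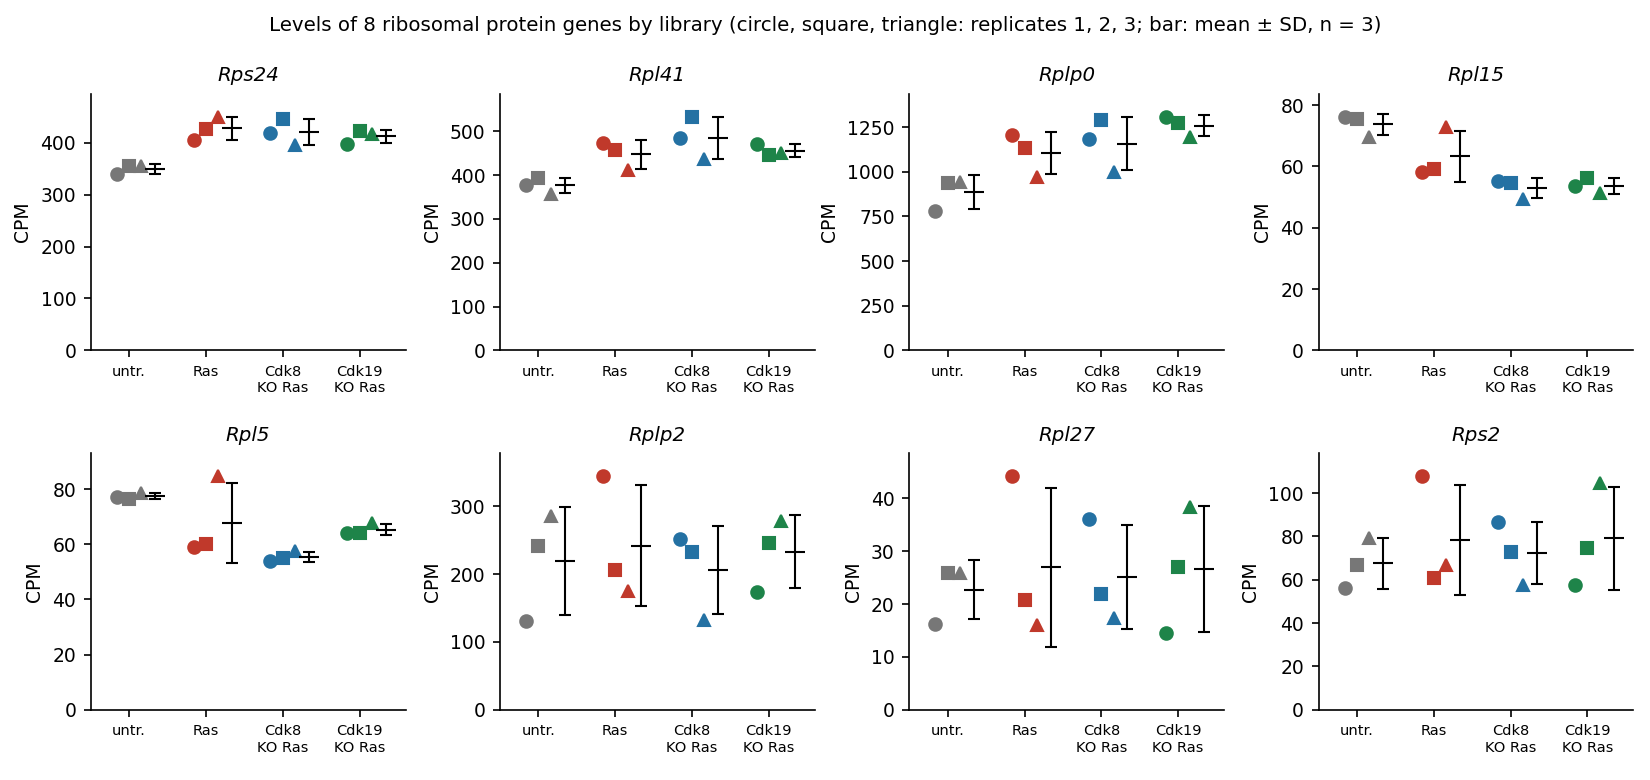
CPM of 8 ribosomal protein genes in each of 12 libraries by group (axes from 0), with bars at mean ± SD, n = 3. Rps24 is higher in all RasG12V samples than in all untransformed samples. RasG12V replicate 3 lies within the untransformed range for Rpl15 and above it for Rpl5. Rplp2, Rpl27 and Rps2 are mixed between groups.

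The knockout comparisons ask what each Mediator kinase contributes in transformed cells. Both use the same 3 RasG12V samples, so their values are not independent. In the Cdk8 knockout against RasG12V, 0 of 80 ribosomal protein genes were called in edgeR, where 0% of all genes were called. DESeq2 and limma-voom also called 0 of the 80, where they called 0.210% and 0% of all genes. The samples did not overlap for 1 gene higher (Rpl13; 6.36% of all genes) and 5 lower (Rpl5, Rpl15, Rpl23, Rpl27a and Rps26; 6.18% of all genes). At an unadjusted p under 0.05 there were 3, all lower, where 6.10% of all genes passed. They were Rpl27a (log2 fold change -0.33, SE 0.12, adjusted p = 0.771 in edgeR), Rpl5 (-0.29, SE 0.12, adjusted p = 0.796 in edgeR) and Rpl15 (-0.25, SE 0.095, adjusted p = 0.776 in edgeR). The largest value was that of Rpl29, 0.23 (SE 0.12, adjusted p = 0.848 in edgeR). The median over the 80 genes was -0.02, against -0.01 for all genes.

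In the Cdk19 knockout against RasG12V, 0 of 80 were called in edgeR, DESeq2 and limma-voom. Of all genes, edgeR called 0.0140% (0.00700% in each direction), DESeq2 0.462% and limma-voom 0.0140%. The samples did not overlap for 5 genes higher (Rps3a1, Rps18, Rps21, Rpl18 and Rpl34; 6.75% of all genes) and 1 lower (Rpl15; 7.78% of all genes). At an unadjusted p under 0.05 there was 1, Rpl15 (-0.24, SE 0.095, adjusted p = 0.590 in edgeR), where 7.62% of all genes passed. The lowest value was that of Rps29, -0.45 (SE 0.24, adjusted p = 0.691 in edgeR), on 25 to 52 counts a library, and the median was 0.04. In the direct comparison of the Cdk8 with the Cdk19 knockout, 0 of 80 were called by any of the 3 tools. Of all genes, edgeR called 0.105% (0.0770% higher, 0.0280% lower), DESeq2 0.791% and limma-voom 0.112%. At an unadjusted p under 0.05 in edgeR 0 of 80 passed, where 7.19% of all genes did. The samples did not overlap for 1 gene higher (Rps29; 11.1% of all genes) and 4 lower (Rpl5, Rpl23, Rpl27a and Rpl31; 9.59% of all genes). The median was -0.05, and 25 of the 80 values were above 0, against 48.8% of all genes. The highest value was that of Rps29, 0.38 (SE 0.23, adjusted p = 0.841 in edgeR).

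Precision set what could be seen. Approximate 95% intervals, taken from the SE and the normal distribution, lay within 0.5 of 0 on the log2 scale for 67 of 80 genes in each knockout against RasG12V and for 63 of 80 in the knockouts against each other. They lay within 1 of 0, a doubling or halving, for 80 of 80 in all of these. For Rpl4 the Cdk8 knockout stood at 3384 ± 241 CPM and the Cdk19 knockout at 3483 ± 230 CPM, against 3175 ± 255 CPM in RasG12V (SD, n = 3 each). For Rps3 the values were 2365 ± 335, 2557 ± 176 and 2336 ± 128 CPM (SD, n = 3 each). Both genes overlapped between the groups. Rpl15 was at 55.3, 54.6 and 49.3 CPM in the Cdk8 knockout and at 53.6, 56.3 and 51.2 CPM in the Cdk19 knockout. All of these lay below the RasG12V samples, of which replicate 3 was the highest at 72.8 CPM. Rpl5 was at 53.8, 55.2 and 57.5 CPM in the Cdk8 knockout and at 64.1, 64.2 and 67.6 CPM in the Cdk19 knockout, without overlap (-0.23, SE 0.12, adjusted p = 0.738 in edgeR).

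Without both 3rd replicates a few calls appeared. In the Cdk8 knockout against RasG12V it was Rpl6, a large subunit protein, which was higher by 0.30 (adjusted p = 0.0352 in edgeR), where 1.59% of all genes were called (1.18% higher, 0.414% lower). In the Cdk19 knockout it was Rpl7a (0.31, adjusted p = 0.0232 in edgeR) and Rpl6 (0.29, adjusted p = 0.0302 in edgeR), where 2.01% were called (1.11% higher, 0.897% lower). Between the knockouts it was Rpl5, lower in the Cdk8 knockout by 0.24 on the log2 scale (log2 fold change -0.24, adjusted p = 0.0188 in edgeR), where 5.32% were called (3.59% higher, 1.72% lower). The omitted libraries belong to neither knockout group, so the samples behind this call were the same as before. What changed was the fit shared by all groups, which gives the spread. The calls against RasG12V rest on 2 RasG12V samples, and Rpl6 was at 79.3 and 81.1 CPM in them, against 93.0 to 104.5 CPM in the Cdk8 knockout and 92.3 to 101 CPM in the Cdk19 knockout. The omitted RasG12V replicate 3 had Rpl6 at 98.2 CPM, within both knockout ranges. It had Rpl7a at 249 CPM, above the highest Cdk19 knockout sample at 245 CPM. With all libraries, Rpl6 was not called in the Cdk8 or Cdk19 knockout (adjusted p = 0.859 and 0.725 in edgeR). Nor was Rpl7a in the Cdk19 knockout (adjusted p = 0.779 in edgeR).

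Genes that make, regulate or use ribosomes were read from lists of other genes. Their counts with Ras stand beside the 11.9% of all genes that rose and the 11.5% that fell. Ribosomal proteins with other symbols (4 genes) had 0 calls in all comparisons. Rack1, a scaffold on the small subunit, was at 2718 CPM in untransformed and 3130 CPM in RasG12V samples (log2 fold change 0.20, SE 0.12, adjusted p = 0.255 in edgeR). Fau differed by 0.45 (adjusted p = 0.136 in edgeR) from 3.89 CPM. Of 15 other mRNAs known to carry a TOP tract, 2 rose with Ras and 0 fell: Pabpc1, the poly(A) binding protein, went from 1292 to 1822 CPM (0.50, SE 0.082, adjusted p = 0.000886 in edgeR), and Eif3e, an initiation factor subunit, rose by 0.37 (adjusted p = 0.00400 in edgeR). That is 13.3% of the list, near the share of all genes, and the list's median was 0.14.

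Of 19 further initiation factors, 3 rose and 0 fell with Ras: Eif5 (log2 fold change 0.39, adjusted p = 0.00369 in edgeR), Eif2s1 (0.38, adjusted p = 0.0301 in edgeR) and Eif3m (0.32, adjusted p = 0.0189 in edgeR). That is 15.8% of the list. Of 17 genes of mTORC1, S6 kinase and TOP regulation, 0 rose and 2 fell, Rheb, the GTPase that activates mTORC1 (-0.24, adjusted p = 0.0256 in edgeR), and Rps6ka1, a kinase downstream of ERK (-0.33, adjusted p = 0.0497 in edgeR). Of 20 assembly factors, 2 rose and 1 fell. Gtpbp4 (0.42, adjusted p = 0.00259 in edgeR) and Pes1 (0.23, adjusted p = 0.0473 in edgeR), which act on pre-60S particles, rose, and Eif6, which keeps the 60S subunit from joining too early, fell (-0.47, adjusted p = 0.0151 in edgeR). The shares were 11.8% falling in the mTORC1 list and 10% rising and 5% falling among assembly factors.

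Of 13 chaperones and importins of ribosomal proteins, Ipo7 rose (log2 fold change 0.49, adjusted p = 0.000895 in edgeR) and 0 fell. Of 14 genes of RNA polymerase I and 5S transcription, Polr3b rose (0.23, adjusted p = 0.0266 in edgeR) and 0 fell. Of 10 quality control factors, Nemf (0.49, adjusted p = 0.000304 in edgeR) and Hbs1l (0.27, adjusted p = 0.0131 in edgeR), which act on stalled ribosomes, rose and 0 fell. The shares rising were 7.69%, 7.14% and 20% of these lists. Of 77 mitochondrial ribosomal proteins tested, which translate the mitochondrial genome, 2 rose (Mrps9, 0.41, and Mrpl1, 0.32) and 6 fell (among them Mrpl49, -0.47, and Mrpl33, -0.33), with a median of -0.10. These are 2.6% and 7.79% of the list, both below the shares of all genes. Against RasG12V, 0 genes of any of these lists were called in either knockout.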

How the data were processed

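Gene expression was measured by RNA sequencing of 12 samples, 3 in each of 4 groups. The deposited files hold gene counts, 1 table per library, with unstranded, forward-strand and reverse-strand columns. FastQC, STAR (version 2.6.0a) and the build GRCm38.p6 are named, per the submitters' processing notes. Which annotation release was counted is not given in the sources used here. Libraries were made from rRNA-depleted RNA, per the labels. Reverse-strand counts (column 4) were used, since they were 24.7 to 28.9 times the forward-strand counts; the kit that the labels name does not state strand. Multimapped reads were not counted, and library sizes hold only reads given to a gene. GENCODE M21 gave symbols and coordinates for 54079 of the 54146 identifiers, leaving 67 unmatched.

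All 12 libraries entered 1 quasi-likelihood fit (R 4.3.3, edgeR 4.0.16; robust glmQLFit and glmQLFTest) after filterByExpr on the groups and TMM scaling, and p-values were adjusted by Benjamini-Hochberg over the 14283 genes kept. 80 of the 83 ribosomal protein genes were kept. Levels are TMM-scaled CPM. An approximate SE was taken as |log2 fold change| over the root of F. The script was tested on simulated data. Shared sequence is the percentage of 50-base words of a gene's coding sequence found in transcripts of other genes. Alternatives included DESeq2 1.42.0 and limma 3.58.1. Genes were named in full where called, where they are paralogs, at the ends of the level range, in the P stalk, or largest in a comparison; in the lists, by adjusted p. Rpl5, Rpl15, Rpl27, Rps2, Rps10 and Rpl36 were singled out after their values were seen. The genes and lists were chosen with earlier results of these data known. Figures were drawn with matplotlib 3.10.9. Some genes of the set count in all totals and medians but are not reported here by name.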

Additional observations from a re-analysis of the deposited data

How the results depend on the processing

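The median of the 80 genes in RasG12V against untransformed stayed above 0 under every alternative run. The number called was 1 in the main fit, where 23.4% of all genes were called. It moved to 3 with upper quartile scaling (23.2% of all genes) and 2 with TMM factors from other genes (23.2%). It was 5 without a filter on low counts (11.3%) and 2 with a filter of 1 CPM in 3 libraries (24.6%). It was 4 in DESeq2 (26.2%), 0 with only the 2 groups compared (11.4%) and 19 without both 3rd replicates (40.0%). With a replicate block it was 2 (25.8%). Correlations of same-numbered samples ran from -0.168 to 0.282, with 8 of 18 pairs over 0.1 (4 of the 6 pairs of replicate 3). The main fit had no block because the labels do not say that a replicate number marks a shared culture or day. Whether some same-numbered samples share a batch was not tested further. The knockout comparisons had 0 called under every alternative except without both 3rd replicates. Then 1 was called for Cdk8 against RasG12V (1.59% of all genes), 2 for Cdk19 against RasG12V (2.01%) and 1 between the knockouts (5.32%). Between the knockouts the samples compared were the same as in the main fit, and only the fit shared with the other groups changed. Leaving out 1 library at a time gave between 0 and 10 calls for RasG12V against untransformed. The 0 was reached without untransformed replicate 1 (16.2% of all genes called) and the 10 without RasG12V replicate 3 (33.0%). The median in the Cdk8 knockout against RasG12V ranged from -0.041 to 0.035, the latter without Cdk8 knockout replicate 3. Rpl5 in RasG12V against untransformed reversed from -0.19 to 0.067 in the unstranded counts. Apart from the shared fit named above, the cause of these moves was not tested. 13 of the tested genes stayed under 10 CPM, which limits the precision of their values. Over all genes, 3340 were called for RasG12V against untransformed, 1574 with only the 2 groups compared and 5799 without both 3rd replicates. For Cdk8 against RasG12V, Cdk19 against RasG12V and between the knockouts the counts were 0, 2 and 15. They were 30, 66 and 113 in DESeq2, 16, 84 and 108 without a filter, and 231, 291 and 771 without both 3rd replicates. With only the 2 groups compared, 496 genes were called between the knockouts.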
